A study of Mus musculus with 17 samples.

Results

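Beta-catenin target genes that feed back on the Wnt pathway were followed in mammary tumors of CUX1 transgenic mice. The group holds 6 genes of the 28786 with a probe on the array: Axin2, Nkd1, Apcdd1, Notum, Lgr5 and Sp5. They are known targets of beta-catenin and were also selected on measured values, since their log2 ratios in tumors with high and low Wnt gene expression, and in the tumor p110-416, were known when the group was drawn up. Their probes were found by the gene name in the scanner files or, for Notum, which the files list under the older name 5730593N15Rik, by its RefSeq accession.

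The samples are 17 mammary tumors of FVB mice, 9 from p75-CUX1 and 8 from p110-CUX1 transgenic mice. In both groups the regulatory sequences of the mouse mammary tumor virus (MMTV), which are active mainly in mammary epithelium, drive a shortened form of the transcription factor CUX1, so the transgene is present in every sample and no tumor serves as an untreated control. By the labels, 4 tumors are adenosquamous carcinomas (p75-47, p75-80, p75-94 and p75-101, all p75-CUX1), 9 are solid carcinomas (3 p75-CUX1 and 6 p110-CUX1), 2 are adenomyoepitheliomas, 1 is an adenocarcinoma and 1 is an adenoma. Epithelial tumor cells were cut out by laser, their RNA was amplified and labeled in 1 color, and a pooled mouse reference RNA was hybridized in the other color, with dyes swapped over the 38 arrays. Each tumor comes from 1 mouse, and ages are not given in the sources used here.

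A value below is the log2 ratio of tumor over reference from the authors' processed table, so 1 means a level 2-fold that of the reference. A gene is called measured in a tumor where the scanner software marked its probe, in the tumor's color, as well above background on each of the tumor's arrays. The share of probes well above background on an array, as a mean over a tumor's arrays, ran from 20.9% in p110-374 to 65.0% in p75-129. It was 46.8% in p110-416. All p75-CUX1 tumors were scanned in 2009 and all p110-CUX1 tumors in 2008, so transgene and scan year cannot be told apart. Of 8 epithelial markers such as Epcam, Krt8 and Krt14, between 3 and 8 were measured per tumor, with a median of 7. The tumor p110-121, labeled a solid carcinoma, stood apart from the others in its markers and had 3 of the 8 measured. Its mean log2 ratio over the 8 epithelial markers was -1.73, with the next lowest tumor at 1.37, and Krt8 and Krt18, keratins of luminal cells, stood at -4.32 and -4.91. Elf5, a luminal transcription factor, was 0.08 in it against a median of 8.30. Its mean over 6 immune markers was 3.05, with the next highest at 0.76, and Csf1r and Lyz2, genes of macrophages, stood at 5.23 and 7.17. The list of solid carcinomas in the study's text leaves this tumor out. It keeps its label below, and the differences are also given without it. Fewer cells of a type and less RNA per cell cannot be told apart in such samples.

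Wnt ligands bind Frizzled and LRP receptors, and the signal halts a cytoplasmic complex of AXIN, APC, GSK3 and CK1 that marks beta-catenin for degradation. Beta-catenin then accumulates, enters the nucleus and switches on genes together with factors of the TCF and LEF family. Several of these genes act back on the pathway. AXIN2 rebuilds the degradation complex, NKD1 binds Dishevelled, APCDD1 sits in the membrane and binds Wnt ligands, and NOTUM is a secreted enzyme that removes the lipid which Wnt ligands need for receptor binding. LGR5 is a receptor for R-spondins, which strengthen Wnt signals, and marks stem cells in several epithelia. SP5 is a zinc finger factor that restrains other beta-catenin targets. In the mammary gland the pathway is known for its part in basal stem cells, and MMTV-driven Wnt ligands cause mammary tumors in mice.

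The array reads each gene with probes of 60 bases. The last 30 bases are shown for the probes behind the values of Axin2, Nkd1, Notum, Lgr5 and Sp5, because each value of these genes rests on 1 probe. The Apcdd1 probe is not shown. They are printed 5′ to 3′ as the scanner files give them, in lower case throughout. Positions are those in the files, on mouse build mm7, where the Axin2 probe lies at chr11:109059707-109059766 on the plus strand, that of Nkd1 at chr8:87184514-87184573 on the plus strand and that of Lgr5 at chr10:114958025-114958084 on the minus strand. The files give no position for the Sp5 probe. Whether a probe lies in coding or untranslated sequence was not examined. The Notum probe, with the RefSeq accession of the gene, lies at chr11:120770742-120770801 on the plus strand. A second probe under the same older name, at chr11:120763252-120763311 on the minus strand, carries no RefSeq accession and was not used. It lies 7.49 kb away on the opposite listed strand and was measured in 0 tumors, so the Notum values rest on the file's accession for a single probe.
Axin2 probe: aaagagttcatttaaagaaaactacttggt
Nkd1 probe: agacacatggaaacacagaagtaaactttt
Notum probe: cacagacaaggagactgcggcaagttttag
Lgr5 probe: gaaggaaagccatcaagtcacttaggtgaa
Sp5 probe: gcgaacagcagttggcagcgtgaaaataaa

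Of the group, 3 genes have a promoter in the RefSeq table used here (build GRCm38.p6), Axin2, Nkd1 and Sp5. Their sequences are shown because TCF and LEF factors bind short sites near CTTTGAT or CTTTGTT, and Sp5 parted from Axin2 and Nkd1 in the tumors described below. The 250 bases before the annotated start were searched on both strands for these letters, which cannot overlap each other at the same start. In lower case with matches in capitals, the Sp5 promoter (chr2:70474673-70474922, plus strand) held CTTTGTT on the minus strand, beginning 222 bases before the start, and CTTTGAT on the plus strand, beginning 104 bases before it. The promoters of Axin2 (chr11:108920099-108920348, plus strand) and Nkd1 (chr8:88527383-88527632, plus strand) held neither in this window. Of 32851 promoters in the table, 3.21% held CTTTGAT, 5.03% held CTTTGTT, 8.06% held at least 1 of them and 0.174% held both. A match is a description of the letters only, and sites farther away were not searched. GC made up 69.2% of the Axin2 window, 58.4% of the Nkd1 window and 46.0% of the Sp5 window.
Sp5 promoter: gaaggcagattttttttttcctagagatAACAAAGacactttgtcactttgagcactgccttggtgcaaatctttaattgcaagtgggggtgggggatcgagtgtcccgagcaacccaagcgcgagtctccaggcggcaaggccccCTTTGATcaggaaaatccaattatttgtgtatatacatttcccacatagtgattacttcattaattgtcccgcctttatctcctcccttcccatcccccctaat
Nkd1 promoter: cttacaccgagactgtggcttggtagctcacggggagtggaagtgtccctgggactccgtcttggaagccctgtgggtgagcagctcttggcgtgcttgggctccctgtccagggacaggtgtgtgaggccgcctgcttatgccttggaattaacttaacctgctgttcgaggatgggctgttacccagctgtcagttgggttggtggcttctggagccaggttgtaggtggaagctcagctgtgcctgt
Axin2 promoter: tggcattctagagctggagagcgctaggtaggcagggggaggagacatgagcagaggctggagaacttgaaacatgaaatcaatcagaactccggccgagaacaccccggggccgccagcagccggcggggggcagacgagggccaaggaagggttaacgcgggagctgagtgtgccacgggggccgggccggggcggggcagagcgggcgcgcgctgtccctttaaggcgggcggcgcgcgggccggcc

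Axin2, the member most often used as a readout of beta-catenin activity, stood out in a single tumor. The log2 ratio was 4.73 in the solid carcinoma p110-416 and 1.01 in p75-94, the next highest. The other tumors ran from -1.36 in p110-314 to 0.81 in p75-80, with both dye orientations of p110-314 far apart (-2.39 with the tumor in Cy3 and -0.33 in Cy5). Only p110-416 had Axin2 measured. In p75-80, p75-94 and p110-360 some arrays passed this mark but not all. The reference itself was above background on 14 of 38 arrays, so for most tumors a value near 0 means that neither color was measured, not that tumor and reference had equal levels. In p110-416 the value was 4.21 with the tumor in Cy3 and 5.26 in Cy5.

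Nkd1, the Dishevelled-binding inhibitor, was measured in 11 of 17 tumors and on the reference side on all 38 arrays. It too was highest in p110-416, with a log2 ratio of 5.16. Then came p75-94 with 3.62, p75-47 with 2.86 and p75-80 with 2.49, which are 3 of the 4 adenosquamous carcinomas. The remaining 13 tumors ran from -1.42 to 1.53, led by the adenomyoepithelioma p110-374. With median centering in place of loess p110-374 had -0.11, and p75-129 led these 13 at 1.07. The opposite dye orientations differed by a median of 0.25, and by at most 1.68, in p110-314, so p110-374 lay below p75-80 by more than the usual dye difference but by less than the largest.

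Apcdd1, which encodes the membrane protein that binds Wnt ligands, split the tumors into 4 with high and 13 with low values. Its probe was measured in 16 of 17 tumors, the most of any member, and on the reference side on all 38 arrays. The high tumors were p75-94 at 5.28, p110-416 at 4.70, p75-80 at 3.94 and p75-47 at 2.25. All others lay between -2.32 and -0.78, below the reference, and the fourth adenosquamous carcinoma, p75-101, was the highest of these at -0.78. No tumor fell in the interval between -0.78 and 2.25. The orientations of the dyes differed by a median of 0.92 for this probe, in the same direction in every tumor, and averaging over swapped dyes removes such an effect. A second Apcdd1 probe was measured in 0 tumors and stayed between -0.27 and 0.48.

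Notum, the secreted enzyme that inactivates Wnt ligands, was measured in 4 tumors, the same 4 that led for Apcdd1. It stood at 3.19 in p75-80, 1.62 in p75-94, 1.05 in p110-416 and 0.95 in p75-47. The other 13 tumors lay between -0.48 and -0.03 and none was measured. The reference was above background on 9 of 38 arrays, so the sizes depend on the offset in the background correction. With the signals processed by Feature Extraction the same tumors had 5.45, 3.05, 2.52 and 3.07. The values of p110-416 and p75-47 differed by less than the dye difference of p110-416, which was 0.71 and the largest for this probe. With either set of signals p75-80 led and p110-416 did not, unlike for Nkd1 and Axin2.

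Sp5, the zinc finger factor, was high in a pair of tumors and not in p110-416. Its log2 ratio was 6.11 in p75-94 and 4.11 in p75-80, both adenosquamous carcinomas. Next came p110-225 at 1.01, p75-534 at 0.83 and p75-129 at 0.75, all solid carcinomas and all measured, and the other 12 tumors lay between -0.07 and 0.41 and were not. In p110-416 it was -0.07, with the probe above background on 0 arrays. The adenosquamous carcinoma p75-47, high for Nkd1, Apcdd1 and Notum, had -0.02 and was not measured either. The reference was above background on 1 of 38 arrays, so the size of a high ratio depends on the offset used in the background correction.

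Lgr5, the R-spondin receptor, followed a different set of tumors. It was measured in 2 solid carcinomas, p110-143 at 3.40 and p75-150 at 1.30. All 4 arrays of p110-143 had the tumor's color above background, with 3.18 for the tumor in Cy3 and 3.62 in Cy5. The other 15 tumors lay between -0.04 and 0.86, the highest of them p75-94, and p110-416 had 0.03. The reference was above background on 0 of 38 arrays. A second Lgr5 probe was measured in 0 tumors and ran from -0.08 to 0.25, so the high value of p110-143 came from 1 of 2 probes.

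**Figure D1:**
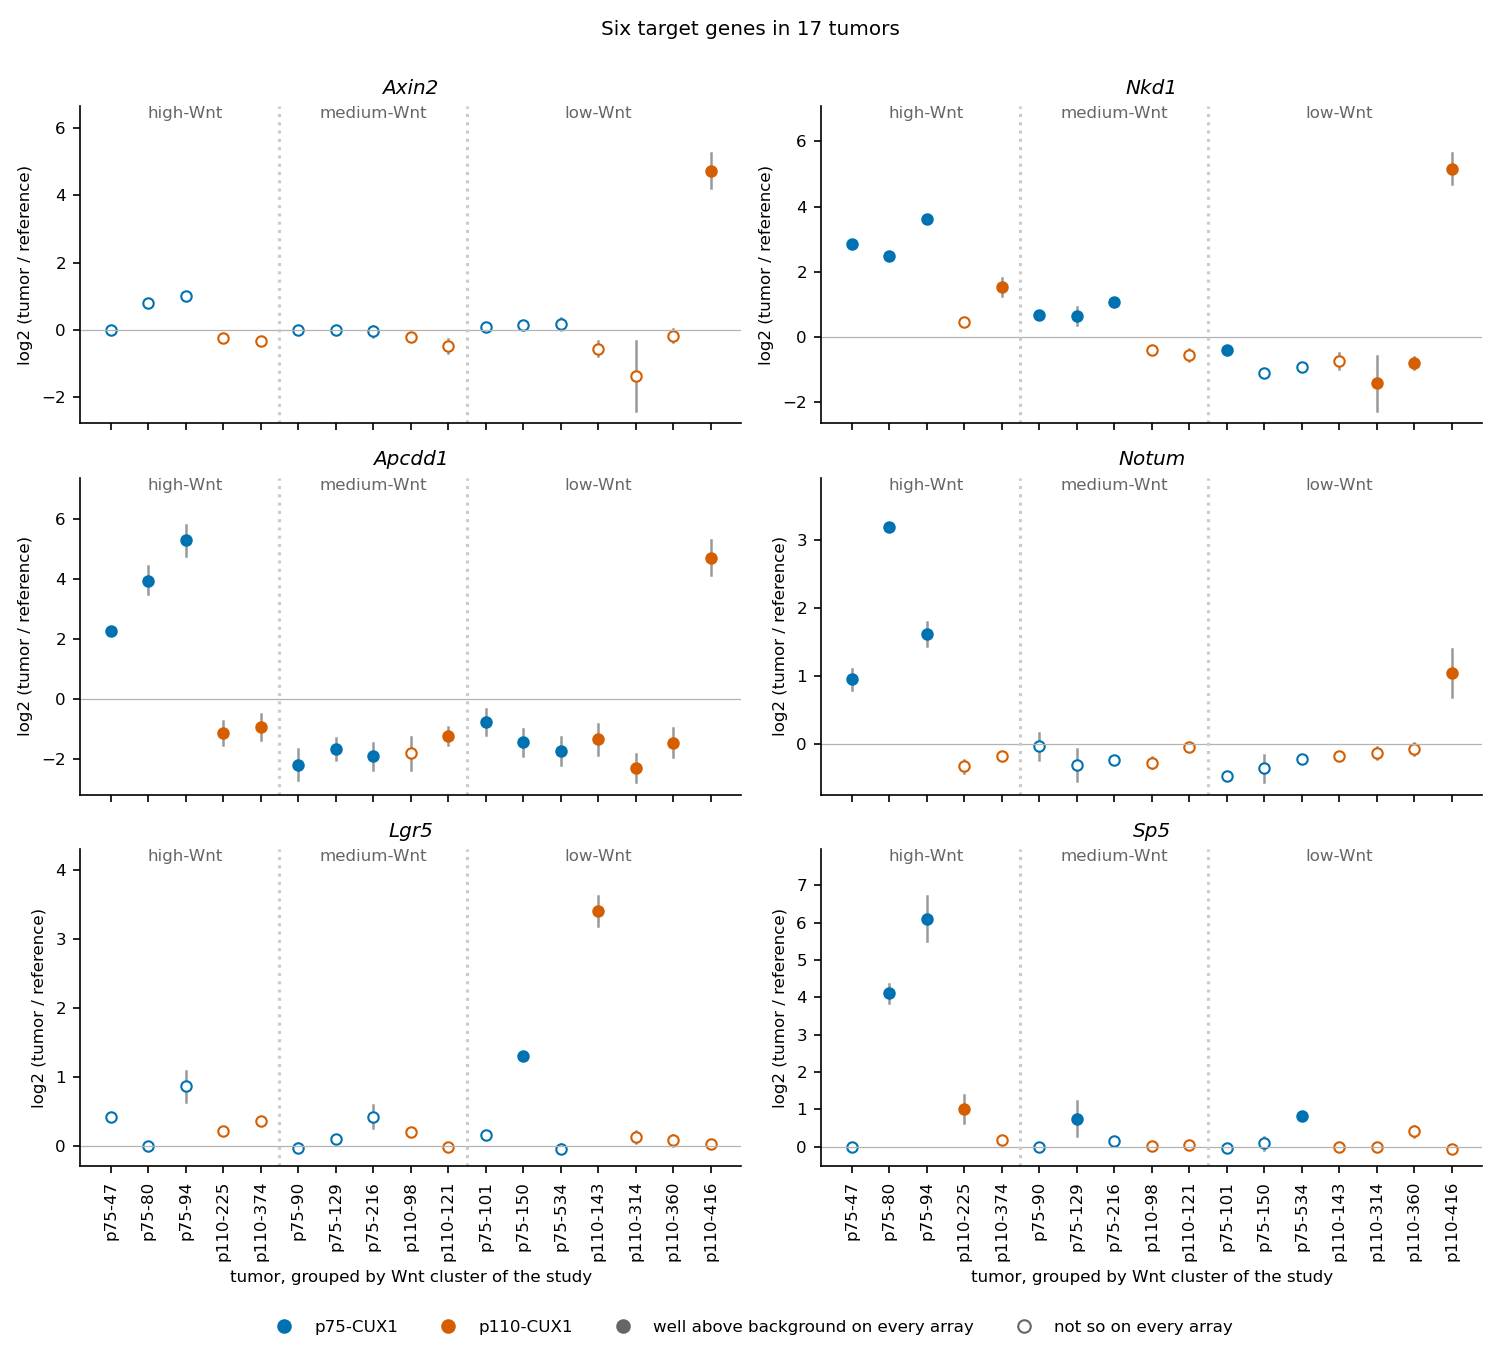
Log2 ratio of tumor over reference for each of the 6 genes (vertical axis, 1 panel per gene with its own scale) in 17 tumors (horizontal axis), ordered by the study's Wnt clusters and colored by transgene. Filled points were well above background on every array of the tumor, open points were not, and gray bars join the values with the tumor in Cy3 and in Cy5. The tumor p110-416, at the far right, had 4.73 for Axin2, 5.16 for Nkd1 and 4.70 for Apcdd1 but -0.07 for Sp5 and 0.03 for Lgr5.

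Set side by side, 3 tumors had 4 of the 6 genes measured and no tumor had more. In p75-80 and p75-94 these were Nkd1, Apcdd1, Notum and Sp5. In p110-416 they were Axin2, Nkd1, Apcdd1 and Notum. The tumors p75-47 and p75-129 had 3 measured, 10 tumors had 2, p110-121 had 1 and the adenoma p110-98 had 0. Thus the solid carcinoma p110-416 shared measured Nkd1, Apcdd1 and Notum with the adenosquamous carcinomas p75-47, p75-80 and p75-94. Like p75-47 it did not have Sp5 measured, and of the 17 tumors it alone had Axin2 measured. Between p110-416 and p75-94 the log2 ratio differed by dye-averaged values of 4.73 against 1.01 for Axin2, 5.16 against 3.62 for Nkd1, 4.70 against 5.28 for Apcdd1, 1.05 against 1.62 for Notum and -0.07 against 6.11 for Sp5. Each is a comparison of single tumors and has no replicate error. Signal strength differed between the tumors counted here. The mean share of probes well above background was 65.0% in p75-129, 54.4% in p75-94, 34.7% in p75-80, 31.2% in p110-121 and 23.0% in p110-98. Its part in the counts of measured genes was not tested.

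The study drew 3 clusters of tumors from the expression of Wnt genes on these same arrays, high-Wnt (5 tumors), medium-Wnt (5) and low-Wnt (7). The clusters are not among the sample labels, and the genes were chosen with this contrast known, so values are described without a test. Every high-Wnt tumor lay above every low-Wnt tumor for 276 of all 28786 genes (0.959%) and for 0 of the 6, and at such a share the count of 0 is no result about these genes. Apcdd1 had 2.25 in p75-47, 3.94 in p75-80 and 5.28 in p75-94, but -1.15 in p110-225 and -0.95 in p110-374, which are high-Wnt tumors as well and had -3.62 and -3.69 with median centering. In the 7 low-Wnt tumors Apcdd1 ran from -2.32 to 4.70 with a median of -1.46, and without p110-416 the highest was -0.78. The medium-Wnt tumors had a median of -1.82, so their Apcdd1 was no nearer to the high values than that of the low-Wnt tumors.

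For Nkd1 the clusters were graded in their medians. The high-Wnt tumors had 2.86 in p75-47, 2.49 in p75-80, 3.62 in p75-94, 0.46 in p110-225 and 1.53 in p110-374, the medium-Wnt tumors had a median of 0.64 and the low-Wnt tumors one of -0.81. Without p110-416, every low-Wnt tumor was at or below -0.40 and every high-Wnt tumor at or above 0.46. The 0.46 is that of p110-225, where Nkd1 was not measured, and 3 of these 6 low-Wnt tumors had it measured. How many of all genes part the tumors in this way was not counted. With median centering in place of loess this separation was lost, since p110-225 then had -0.77 and p75-101 had -0.47. In p110-416 Nkd1 exceeded every high-Wnt tumor. In the same order of clusters the Notum medians were 0.95, -0.23 and -0.18, and those of Sp5 1.01, 0.05 and -0.02. Notum was measured in 3 of 5, 0 of 5 and 1 of 7 of these tumors, and Sp5 in 3 of 5, 1 of 5 and 1 of 7, so the lower medians rest on tumors in which the genes were mostly not measured. The Axin2 medians were 0.00, -0.04 and 0.08, and the Lgr5 medians 0.36, 0.10 and 0.12, with Axin2 measured in 1 and Lgr5 in 2 of the 17 tumors.

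Adenosquamous and solid carcinomas were compared because the labels give these histological types. All 4 adenosquamous carcinomas are p75-CUX1 tumors and 3 of them are high-Wnt tumors, so the comparison is not independent of the pattern known when the genes were chosen. The values of the 6 genes are therefore given as a description, with no p. Across all genes the limma fit called 0 of 28786 higher (0%) and 0 lower (0%) at an adjusted p under 0.05, with 1588 at an unadjusted p under 0.05, and 0 with trend and robust estimation. For the group, 5 of 6 differences were above 0, with a median of 1.73 against -0.01 over all genes.

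Apcdd1 was high in 3 of the 4 adenosquamous carcinomas. Its adenosquamous values were 5.28 in p75-94, 3.94 in p75-80, 2.25 in p75-47 and -0.78 in p75-101. The solid carcinomas ran from -2.32 through a median of -1.46 to 4.70 in p110-416. All 4 adenosquamous carcinomas thus lay above 8 of the 9 solid carcinomas, and p110-416 lay within their range. The closest of the 8 to p75-101 was p110-225 at -1.15, and how many of all genes part the tumors so was not counted. The difference was 3.53 (SE 1.25), with means of 2.67 ± 2.62 (SD, n = 4) and -0.86 ± 2.11 (SD, n = 9). With the p75-CUX1 tumors alone, 4 against 3, the difference was 4.30.

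Notum differed by 1.39 (SE 0.48). It was 3.19 in p75-80, 1.62 in p75-94, and 0.95 in p75-47, and the solid carcinoma p110-416, at 1.05, lay within this range. In p75-101 (-0.48) and the other 8 solid carcinomas (-0.36 to -0.05) Notum was not measured, so these values have no order. Nkd1 differed by 2.07 (SE 1.08). Its adenosquamous carcinomas stood at 3.62, 2.86, 2.49 and -0.40, and the solid ones between -1.42 and 5.16 with a median of -0.75.

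Sp5 differed by 2.20 (SE 0.91), a difference carried by 2 tumors, since the adenosquamous values were 6.11, 4.11, -0.02 and -0.04 and the solid ones ran from -0.07 through 0.10 to 1.01. Without p75-94 the difference was 1.01. Axin2 differed by 0.22 (SE 0.83), with adenosquamous values of 1.01, 0.81, 0.08 and 0.00 and solid values from -1.36 through -0.17 to 4.73. The Lgr5 difference was -0.22 (SE 0.55), with the adenosquamous values of 0.86, 0.42, 0.15 and -0.01 inside the solid range of -0.04 to 3.40. Axin2 was measured in 0 of the 4 adenosquamous and 1 of the 9 solid carcinomas, and Lgr5 in 0 and 2.

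Single tumors set the size of these differences. Without p110-416 they were 0.78 (SE 0.28) for Axin2, which then was measured in 0 of the tumors compared, 2.70 for Nkd1, 4.23 for Apcdd1 and 1.53 for Notum. Without p110-121 they were 0.13 for Axin2, 1.99 for Nkd1, 3.48 for Apcdd1, 1.39 for Notum, -0.29 for Lgr5 and 2.17 for Sp5. Notum fell to 0.76 without p75-80, and Lgr5 turned to 0.13 without p110-143. With the signals processed by Feature Extraction Axin2 was 2.11, Nkd1 3.77 and Notum 3.32, and Apcdd1 was 1.70 as the mean of both its probes. Without p75-101 they were 2.91 for Nkd1, 4.68 for Apcdd1, 1.99 for Notum and 3.06 for Sp5, and the limma fit then called 27 genes of 28786. The squamous markers Krt1, Krt10, Ivl, Lor, Sprr1a and Krt6a moved in part with these genes: their mean log2 ratio ran from -0.36 to 1.93 in adenosquamous and from -0.70 to 0.10 in solid carcinomas. In p110-416 it was -0.53, with 3 of 6 measured and Krt1, Ivl and Krt6a not, while p75-80 and p75-94 had 5 of 6 measured. Ivl was measured in 0 tumors. Basal and myoepithelial markers moved in part as well, with a mean over 7 genes of 2.48 to 4.05 in adenosquamous and -0.55 to 3.47 in solid carcinomas. Among them Krt14 differed by 3.50 (SE 0.70), Krt5 by 3.15 (SE 1.56) and Trp63 by 2.73 (SE 1.15), while Acta2, Myh11, Oxtr and Cnn1 differed by -0.77 to 0.36. The part of squamous and basal cells in the results was not tested.

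**Figure D2:**
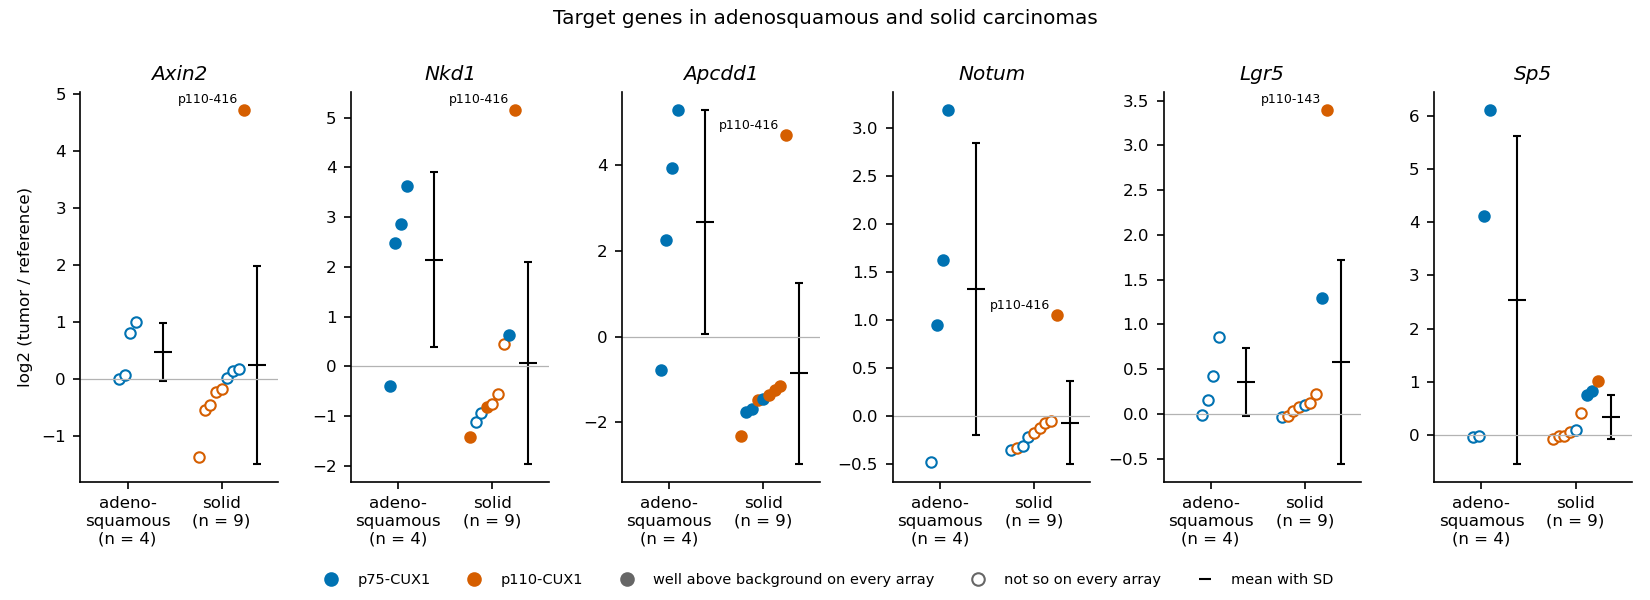
Log2 ratio of tumor over reference for the 6 genes (vertical axis, own scale per panel) in 4 adenosquamous and 9 solid carcinomas. Each point is a tumor, colored by transgene and filled where measured, and the black marks give the mean with its SD. For Apcdd1 all adenosquamous carcinomas lie above 8 solid carcinomas, and p110-416 lies among them at 4.70.

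The transgenes were compared because they are the groups of the design. Over all genes 61 of 28786 were called higher in p75-CUX1 (0.212%) and 71 lower (0.247%), 132 in all, and 0 of the 6, a count that at such shares is no result about these genes. The tumors that led when the genes were chosen are split between the transgenes, so their values are again given with no p. The share of higher calls depended on the scaling, since 1114 of 1191 calls were higher with median centering in place of loess, 38 of 64 after scaling all arrays to 1 spread and 62 of 210 with no background correction. Of the 6 differences 5 were above 0, with a median of 0.53 against 0.00 over all genes. The smallest of the 5, that of Axin2 at 0.06, changed sign under 10 of the alternatives run. Among solid carcinomas alone only that of Sp5 stayed above 0.

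The ranges of the transgenes overlapped for every member. Apcdd1 ran from -2.20 to 5.28 in p75-CUX1 and from -2.32 to 4.70 in p110-CUX1, with medians of -1.46 and -1.31. The difference in means was 0.89 (SE 1.21), and 2.01 with median centering. Leaving out 1 tumor moved it from 0.25 (without p75-94) to 1.66 (without p110-416). Sp5 differed by 1.14 (SE 0.77), from 0.54 without p75-94 to 1.31 without p75-101, with 4 of 9 p75-CUX1 and 1 of 8 p110-CUX1 tumors measured. Nkd1 ran from -1.12 through 0.66 to 3.62 in p75-CUX1 and from -1.42 through -0.48 to 5.16 in p110-CUX1. Its difference was 0.58 (SE 0.89), from 0.25 without p75-94 to 1.26 without p110-416.

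Notum differed by 0.48 (SE 0.45), from 0.14 without p75-80 to 0.63 without p110-416. Axin2 differed by 0.06 (SE 0.62), from -0.16 without p110-314 to 0.71 without p110-416. Lgr5 differed by -0.20 (SE 0.40), from -0.31 without p75-150 to 0.21 without p110-143. The Axin2 difference compares tumors of which all but p110-416 did not have the gene measured. Without p110-121 the differences were -0.03 for Axin2, 0.45 for Nkd1, 0.81 for Apcdd1, 0.48 for Notum, -0.28 for Lgr5 and 1.12 for Sp5, and 105 genes were called. Among solid carcinomas alone, 3 p75-CUX1 against 6 p110-CUX1, the differences of Axin2, Nkd1, Apcdd1 and Notum turned to -0.22, -0.82, -1.16 and -0.35. Those of Lgr5 and Sp5 were -0.18 and 0.33. The scan years differ between the transgenes.

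**Figure D3:**
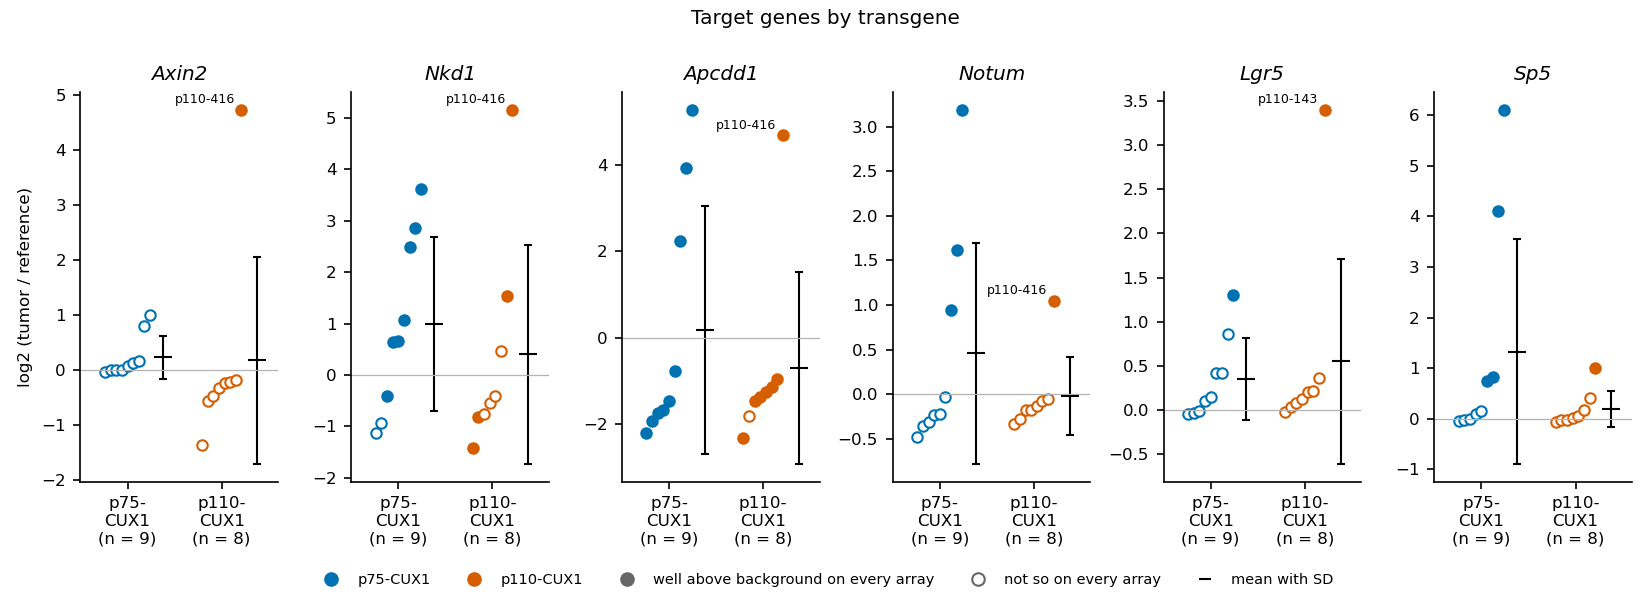
Log2 ratio of tumor over reference for the 6 genes (vertical axis, own scale per panel) in 9 p75-CUX1 and 8 p110-CUX1 tumors. Each point is a tumor, filled where measured, and the black marks give the mean with its SD. The ranges overlap for every gene, and p110-416 is far above the other p110-CUX1 tumors for Axin2 at 4.73, Nkd1 at 5.16, Apcdd1 at 4.70 and Notum at 1.05.

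Apcdd1, as the member measured in most tumors, served as the anchor for likeness in pattern over the 17 tumors. Among the members its Pearson r was 0.872 with Nkd1, 0.851 with Notum, 0.711 with Axin2, 0.67 with Sp5 and -0.0432 with Lgr5. Spearman's rho was 0.63 with Nkd1. For Notum, Axin2, Sp5 and Lgr5, which were measured in 4, 1, 5 and 2 tumors, most values have no order, so no rho is given and r rests on the few tumors in which they were measured. In the 9 p75-CUX1 tumors r with Sp5 was 0.847, and in the 8 p110-CUX1 tumors, where p110-416 is high for Apcdd1 and not for Sp5, it was -0.211. With Nkd1 it was 0.844 and 0.951, with Notum 0.873 and 0.955. The values over p110-CUX1 tumors rest on p110-416, the single tumor among them with high Apcdd1. All tumors share 1 reference and differ in signal strength, and these correlations are descriptions with no p.

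**Figure D4:**
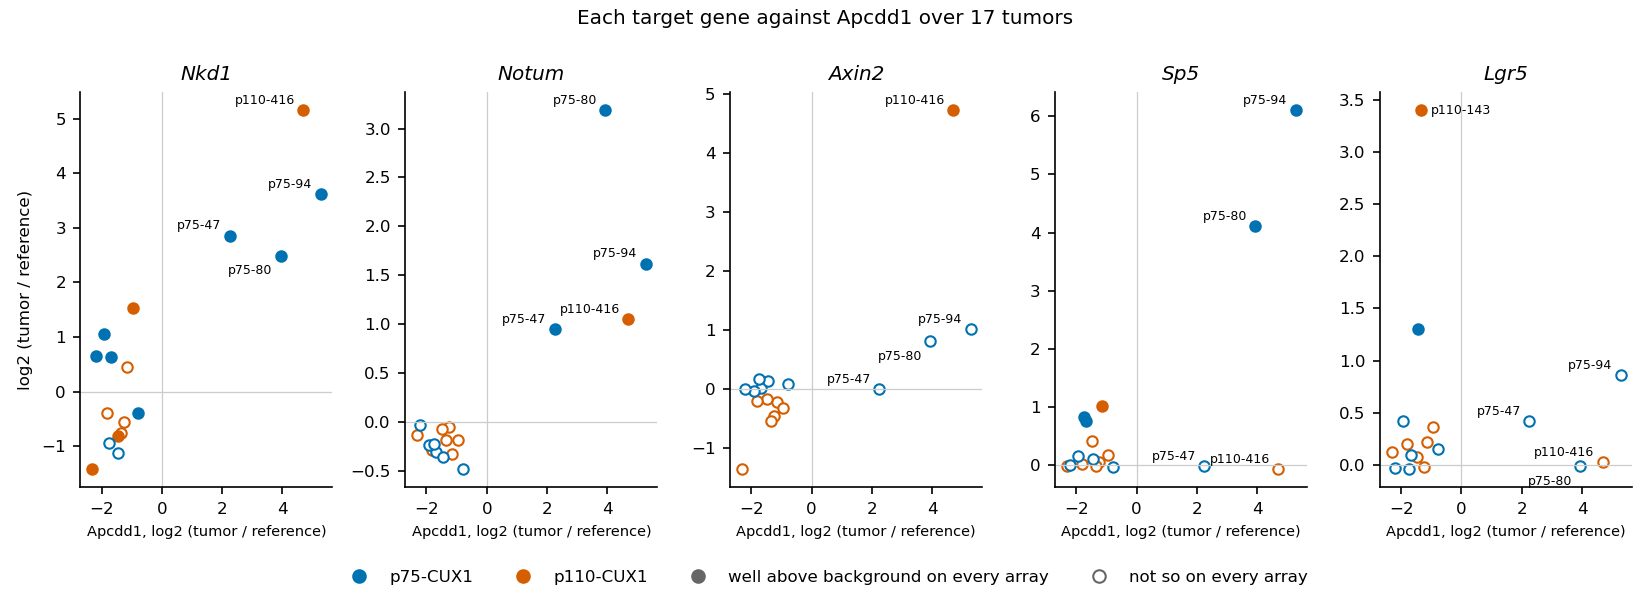
Log2 ratio of 5 target genes (vertical axes) against that of Apcdd1 (horizontal axis) over 17 tumors, with points colored by transgene and filled where the gene on the vertical axis was measured. Nkd1 and Notum are high in the 4 tumors with high Apcdd1, Axin2 reaches 4.73 in p110-416, Sp5 is at -0.02 in p75-47 and -0.07 in p110-416, and Lgr5 has its highest value, 3.40, in p110-143, where Apcdd1 is low.

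Among 11375 genes measured in at least 9 tumors, the 5 most like Apcdd1 by Pearson r were LOC665123 (0.934), BC039632 (0.926), Rhox4e (0.909), Padi4 (0.897) and Nkd1 (0.872). Padi4 encodes an enzyme that converts arginine to citrulline in proteins, and Rhox4e is a homeobox gene of the X-linked Rhox cluster. Padi4 had 4.50 in p75-94, 4.93 in p110-416, 4.31 in p75-80 and 3.41 in p75-47, and Rhox4e had 3.04, 3.48, 2.81 and 4.09. Without the tumors farthest from the median of Apcdd1, p75-94 and p110-416, r was 0.802 for Padi4, 0.888 for Rhox4e, 0.899 for LOC665123, 0.854 for BC039632 and 0.736 for Nkd1.

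Of the 5 paralogs of the members, 0 passed in the limma fit of either comparison and 1 had an unadjusted p under 0.05 in each. Nkd2, a second Dishevelled-binding protein of the naked cuticle family, was measured in 13 tumors and stood at 6.39 in p75-80, 5.94 in p75-534, 5.69 in p75-94 and 5.36 in p75-47. In p110-416 it was 3.03 and only the sixth highest. It differed by 3.04 (SE 0.97) between histological types and by 2.78 (SE 0.85) between transgenes, with limma adjusted p of 0.871 and 0.14. Lgr6, like Lgr5 a receptor for R-spondins, had 2.17 in p75-94 and 1.83 in p110-416, its highest values, and an r of 0.837 with Apcdd1, whereas Lgr4 was highest in p110-360 at 3.64 and in p110-143 at 2.19. Axin1, the constitutive counterpart of Axin2, and Sp8 were measured in 0 tumors.

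The rest of the pathway was read from lists. In the limma fits of both comparisons 0 genes of any list passed in either direction. Between the histological types an unadjusted p under 0.05 was found for 7 of 21 other known targets, 2 of 9 genes of the degradation complex, 1 of 6 genes of the R-spondin branch, both Porcn and Wls, and 0 of 3 Dishevelled genes, against 5.52% of all 28786 genes. Between the transgenes the counts were 6 of 21, 3 of 9, 1 of 6, 1 of 2 and 1 of 3 in the same order, against 14% of all genes. The lists were chosen with results known, so these counts are no test of a list. The median difference between adenosquamous and solid carcinomas was 0.02 over 9 genes of the degradation complex with beta-catenin itself, -0.26 over 3 Dishevelled genes, 1.03 for Porcn and Wls, which modify and carry Wnt ligands, 0.21 over 6 genes of the R-spondin branch and 0.39 over 21 other known targets, against -0.01 over all genes. Between p75-CUX1 and p110-CUX1 these medians were 0.03, -0.19, 0.34, 0.43 and 0.41, against 0.00.

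Some of these genes were picked out after their values were seen, for where they stood in p110-416. Rnf43, which encodes a membrane ubiquitin ligase that removes Frizzled receptors, was highest of all tumors there at 4.47, ahead of p75-80 at 3.23. Tnfrsf19, a receptor of the tumor necrosis factor family, stood at 4.30, after 4.99 in p75-94 and 4.87 in p75-47. Mmp7, a matrix protease, stood at 3.70, after 4.68 in p75-80, 4.20 in p75-94 and 3.74 in p75-47. Dvl1, Gsk3a and Amer1 were also highest in p110-416, at 0.74, 0.44 and 1.52. Other targets were low in that tumor. Sox9 was at -3.43, Tbx3 at -1.99 and Bambi at -0.43, each the lowest of the 17, and Wif1, at 4.98 in p75-94 and 3.95 in p75-80, was 0.01 in p110-416 and not measured. The level of Ctnnb1, the gene of beta-catenin, was -0.49 in p110-416 and ran from -1.71 to 1.44 over all tumors. Ratios speak only to RNA, and neither beta-catenin protein nor mutations were measured here.

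**Figure D5:**
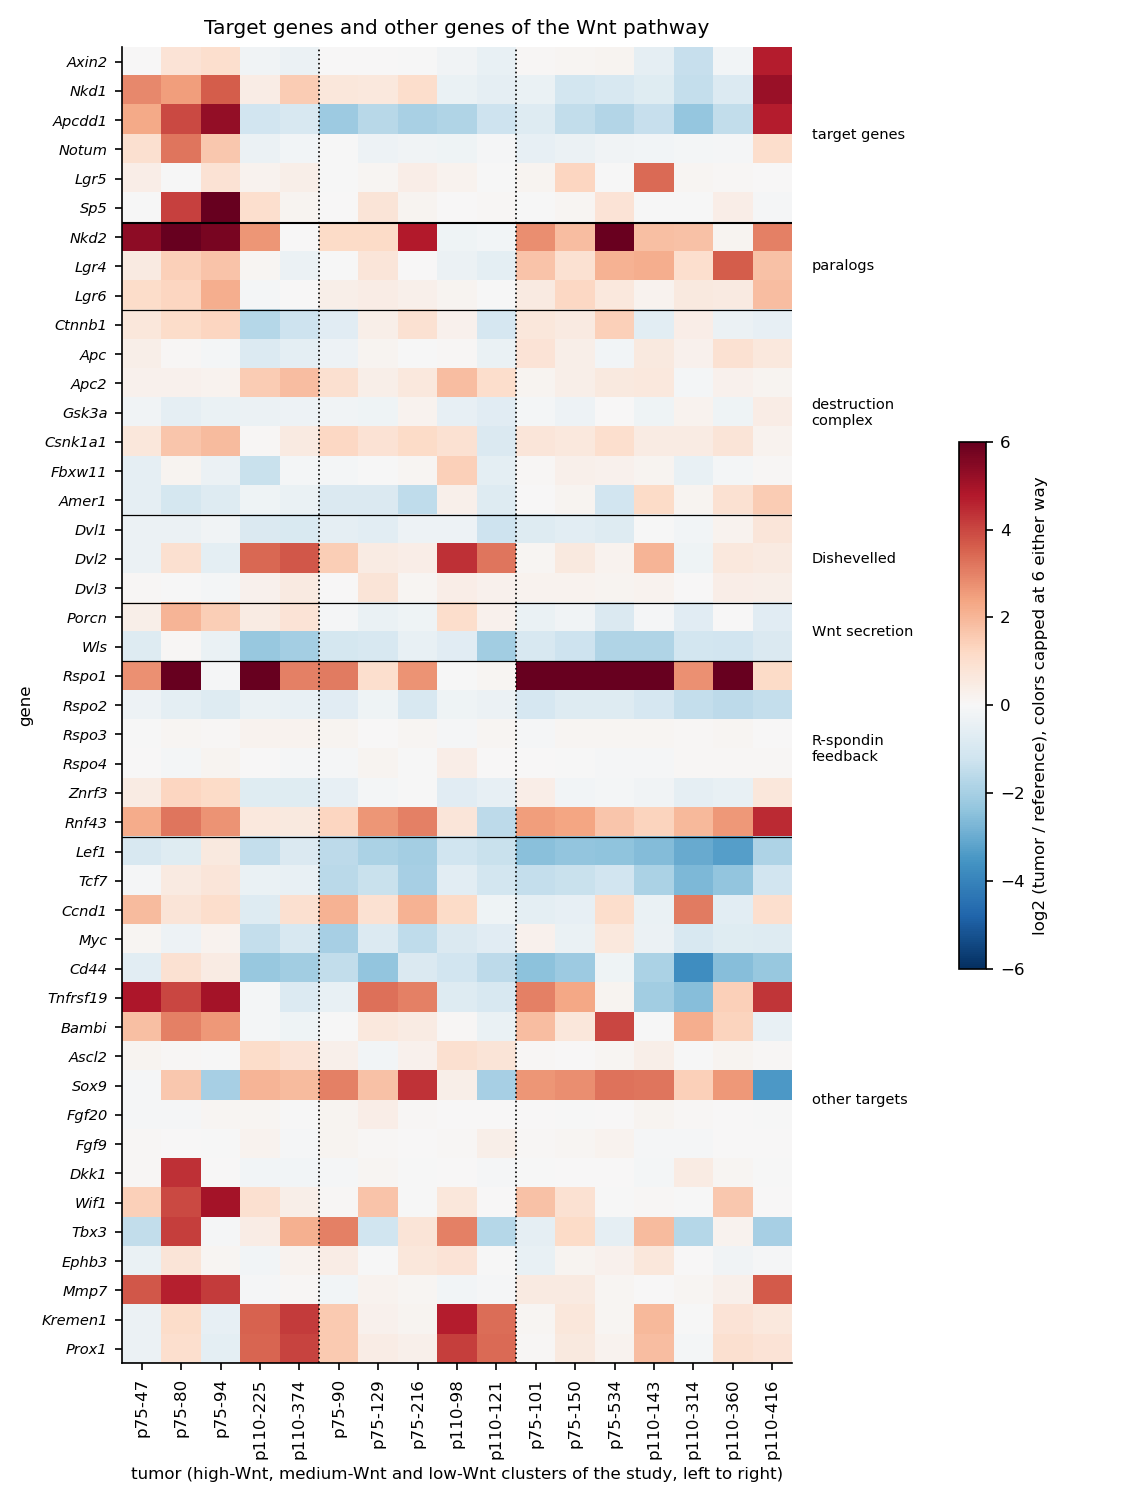
Heat map of the log2 ratio of tumor over reference (color, capped at 6 in either direction) for the 6 target genes and 39 other pathway genes that were measured in at least 1 tumor (rows) in 17 tumors (columns, ordered by the study's Wnt clusters). In p110-416, at the far right, Axin2, Nkd1, Apcdd1, Rnf43, Tnfrsf19 and Mmp7 are red while Sp5 and Wif1 are near 0 and Sox9, at -3.43, is blue.

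In p110-416 some marker lists of other cells were at the low end and others were not. All 8 epithelial markers were measured in it, with a mean log2 ratio of 1.37, the lowest of all tumors but p110-121, in a range up to 3.89. The mean of 6 fibroblast markers, including Col1a1 and Dcn, was -4.64, the lowest of the 17 tumors, whose highest was 0.59. The mean of 7 basal and myoepithelial markers was -0.55, again the lowest, against 2.48 in p75-94 and 4.05 in p75-80, and Trp63 was not measured in it. The means of the other lists lay inside their ranges, at 1.95 for luminal markers (-1.97 to 3.39), 0.92 for endothelium (0.06 to 1.90), 0.63 for adipocytes (-0.05 to 5.47) and -0.92 for immune cells, near the low end of a range that reached 3.05. Across adenosquamous carcinomas the fibroblast mean ran from -2.33 to -0.28, and across solid carcinomas from -4.64 to 0.59. The part of these cell types in the values of the target genes was not tested.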

How the data were processed

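The authors amplified RNA of laser-microdissected tumor cells and hybridized it with a pooled mouse reference RNA on Agilent whole-genome arrays, 38 in all for 17 tumors. The intensity values in the scanner files were extracted by the authors with Agilent Feature Extraction 9.5.3.1 and deposited without normalization. The log10 ratios that the same software wrote into those files were deposited as extracted. Converted to log2, they gave the values above for signals processed by Feature Extraction and were not used elsewhere. The log2 ratios used here are the table deposited by the authors, which was recomputed from the scanner files by normexp background correction (offset 50), loess within each array and averaging over swapped dyes, to within 4.98e-08. The offset pulls ratios of dim probes toward 0, so folds over the reference are understated for Sp5, Lgr5, Notum and Axin2, whose reference signal was dim.

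Of 41174 probes, 22951 (55.7%) took the RefSeq symbol of their accession and the others kept the name in the files, which gave 28786 genes, each read from its brightest probe. Groups came from the sample labels. Adenosquamous (4) and solid (9) carcinomas were contrasted in a limma fit with histological type as group, and p75-CUX1 (9) and p110-CUX1 (8) tumors in a fit with transgene as group by lmFit and eBayes (limma 3.58.1 in R 4.3.3), with p-values adjusted by Benjamini-Hochberg over all genes and a threshold of 0.05. No p is given for the target genes, since the tumors that led to their choice are in both comparisons. The fits were tested on simulated data with known changes. Figures were drawn with matplotlib 3.10.9. Arrays lie on 15 slides and 10 scan days.

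The members and all gene lists were chosen with earlier results of these data known. By rule the text names the paralogs, list genes that passed (0 did) and the 5 genes most like the most often measured member in pattern. Other list genes were named after their values were seen. Alternatives covered background correction, signal, normalization, scaling, dye orientation, probes, variance model, slide, scan year, subsets of tumors and each tumor left out. Replicates are tumors of separate mice. The precision is limited by the number of tumors in each group. Wnt clusters were taken from the study and used for description only.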

Additional observations from a re-analysis of the deposited data

Results flagged for a closer look

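Single tumors far from the rest of their group were found in 11 of 24 groups of 4 to 10 tumors, by the gap to the nearest tumor divided by the range. Of the 11, 8 are p110-416, whose values were known when the genes were chosen, and the groups overlap, so the count is a description and no test. For Axin2, Notum and Sp5, and for Lgr5 among p110-CUX1 tumors, the nearest tumor did not have the gene measured. The gap there runs to values near background, so the 5% that the rule takes for chance cannot be set against the count.

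Among the 9 solid carcinomas and again among the 8 p110-CUX1 tumors, p110-416 was far above all others for Axin2 (4.73, with the nearest at 0.17 and -0.17), Nkd1 (5.16, nearest 0.64 and 1.53), Apcdd1 (4.70, nearest -1.15 and -0.95) and Notum (1.05, nearest -0.05 in both). In the same groups p110-143 stood apart for Lgr5 at 3.40, with the nearest at 1.30 and 0.36. Among p110-CUX1 tumors p110-225 stood apart for Sp5 at 1.01, with the nearest at 0.41, and it alone of these 8 had Sp5 measured.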

How the results depend on the processing

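Against 0 calls between adenosquamous and solid carcinomas, the signals processed by Feature Extraction gave 1, and leaving out 1 tumor gave 0 to 27, the latter without p75-101. Against 132 calls between p75-CUX1 and p110-CUX1, there were 210 with no background correction, 240 with the Feature Extraction signals, 1191 with median centering, 64 after scaling all arrays to 1 spread, 1693 in the tumor's color alone, 259 with the tumor in Cy5 and 70 in Cy3, 0 in solid carcinomas alone (1457 at an unadjusted p under 0.05), and from 35 (without p75-47) to 1173 (without p110-314) with 1 tumor left out. The causes were not tested.

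Between histological types the Axin2 difference turned to -0.32 in the tumor's color alone, and Lgr5 ran from -0.39 to 0.13 with 1 tumor left out, the latter without p110-143. Nkd1, Apcdd1, Notum and Sp5 kept their direction under every alternative run, from 1.58 to 3.77, 1.70 to 4.68, 0.76 to 3.32 and 1.01 to 3.06, tumors left out included. The lowest Apcdd1 value is the mean with the probe that was not measured, the lowest Nkd1 and Sp5 values are those without p75-94 and the lowest Notum value is that without p75-80. Between transgenes Axin2 turned to -0.05 after scaling all arrays to 1 spread, -0.64 in the tumor's color, -0.09 with the tumor in Cy5 and -0.22 in solid carcinomas, and ran from -0.16 to 0.71 with 1 tumor left out. Apcdd1 was 2.01 and Nkd1 0.99 with median centering, Apcdd1 0.39 over all probes, and Axin2 was 1.48, Nkd1 1.36 and Sp5 1.90 with the Feature Extraction signals. In solid carcinomas alone Sp5 was 0.33, Nkd1 -0.82, Apcdd1 -1.16 and Notum -0.35. Lgr5 ran from -0.31 to 0.21 with 1 tumor left out. After median centering p110-416 stayed high, with 4.94 for Axin2, 5.43 for Nkd1, 5.20 for Apcdd1 and 1.17 for Notum. No paired analysis was possible because the groups compared share no replicate number.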
